A study of Mus musculus with 2 samples.

Results

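The dystrophin glycoprotein complex was described here through 8 genes, Dmd, Utrn, Dag1, Sgca, Sgcb, Sgcd, Sspn and Dtna, in total RNA sequencing of the mouse gastrocnemius, the large muscle of the calf. They were taken by symbol from 55450 annotated Ensembl genes, and each symbol named a single gene in the tables. Both libraries came from male B6CASTF1/J mice, an F1 hybrid strain (B6Cast F1 in the labels), at 36 days of age. The labels number them biological replicates 1 and 2 and name no treatment, genotype or other condition, so the series holds 1 group with n = 2. No comparison of conditions follows from this design, and no p-value can be had from it. Where the animals are compared, the ratio is replicate 1 over replicate 2. The tissue is whole muscle, which holds nerve, vessel, tendon and connective tissue cells beside the fibres, and the tables do not separate the alleles of the parents. Both biosamples carry the same donor entry, so the spread between them can be partly technical.

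Dystrophin, the product of Dmd, is a long rod beneath the membrane of the muscle fibre that binds actin at one end and the membrane complex at the other. Dystroglycan, made from Dag1 as a single precursor and cut into an outer and a membrane-spanning piece, joins dystrophin to laminin in the basement membrane. The sarcoglycans and sarcospan form a subcomplex beside dystroglycan, while dystrobrevin and the syntrophins bind dystrophin on the inner side. Utrophin is the close relative of dystrophin, gathered in adult fibres at the neuromuscular and myotendinous junctions and made in many other cell types. Loss of dystrophin or of a muscle sarcoglycan causes muscular dystrophy.

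The sequences before 4 starts are shown because they precede the transcripts that the results below turn on: the muscle form of Dmd, its short forms from an internal start, and the main transcripts of Dag1 and Sgca. Each is the 250 bases before a RefSeq start on build GRCm38.p6, written 5′ to 3′ in the direction of the gene, and none overlaps an annotated exon of its gene. The Dmd muscle window lies at chrX:82948620-82948869 on the plus strand and ends just before the first base of Dmd-205, while the full-length Dmd-203 starts 0.033 kb further on. The Dmd internal window lies at chrX:85048045-85048294 on the plus strand and ends just before the first base of the noncoding Dmd-206. The coding Dmd-201 and Dmd-202 start further on, at base 85048413. The Dag1 window lies at chr9:108263959-108264208 on the minus strand and precedes Dag1-204. The Sgca window lies at chr11:94976328-94976577 on the minus strand and precedes Sgca-202 and Sgca-205.
Dmd muscle start: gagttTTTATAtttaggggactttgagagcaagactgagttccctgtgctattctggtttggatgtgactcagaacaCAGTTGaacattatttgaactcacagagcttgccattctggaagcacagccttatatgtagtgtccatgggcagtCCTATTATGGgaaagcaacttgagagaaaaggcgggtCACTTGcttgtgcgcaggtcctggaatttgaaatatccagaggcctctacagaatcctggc
Dmd internal start: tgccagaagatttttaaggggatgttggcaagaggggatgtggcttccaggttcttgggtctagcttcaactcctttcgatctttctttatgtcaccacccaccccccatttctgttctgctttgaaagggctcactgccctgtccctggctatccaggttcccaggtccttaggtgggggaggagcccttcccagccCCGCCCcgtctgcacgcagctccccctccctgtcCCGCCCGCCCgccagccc
Dag1 main start: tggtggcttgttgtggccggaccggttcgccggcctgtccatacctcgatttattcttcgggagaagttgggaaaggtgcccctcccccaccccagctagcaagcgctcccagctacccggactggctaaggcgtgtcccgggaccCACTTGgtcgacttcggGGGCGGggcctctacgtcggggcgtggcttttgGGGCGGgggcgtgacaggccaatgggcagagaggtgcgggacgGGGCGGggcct
Sgca main start: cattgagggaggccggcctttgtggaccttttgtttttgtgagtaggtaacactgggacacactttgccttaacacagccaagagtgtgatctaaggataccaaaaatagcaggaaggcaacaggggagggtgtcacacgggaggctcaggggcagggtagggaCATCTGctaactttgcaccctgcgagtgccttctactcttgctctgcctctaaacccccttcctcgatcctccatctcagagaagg

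Capitals mark matches to 4 motifs: the E-box CANNTG, the GC box GGGCGG on either strand, the TATA box TATAAA on either strand, and the CArG box, the element of serum response factor. E-boxes are bound by the myogenic factors of the MyoD family. The Dmd muscle window holds 2 E-boxes, a TATA box on the opposite strand far from the start, and a CArG box from 98 to 89 bases before the start. Of 32851 mouse promoter windows of the same length, 1.47% hold a CArG box, 66.2% an E-box, 32.7% a GC box and 12.4% a TATA box. The Dmd internal window holds 3 GC boxes, the last pair of which share bases, and no E-box or CArG box. The Dag1 window holds 1 E-box and 3 GC boxes, and the Sgca window 1 E-box. The windows contain 45.2% G and C at the Dmd muscle start, 60.0% at the internal start, 67.6% at Dag1 and 52.8% at Sgca, against a median of 52.4% over all windows. No match of one motif overlapped a match of another. A match describes the letters only.

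All 8 genes were expressed, and their levels spanned about an order of magnitude, with Sgca and Dag1 well above the rest and Utrn at the bottom. Levels are in TPM, a relative transcript abundance that corrects for length and can be compared between genes. An expected count is the estimated number of reads of a gene, and their totals came to 36952277 for replicate 1 and 38754338 for replicate 2. The 8 genes together made 332 TPM in replicate 1 and 329 TPM in replicate 2 (330.3 ± 2.21, SD, n = 2). All 8 passed the limit of a mean expected count of at least 50, with between 1268 and 10353 reads in a library, so none was left out of any count below.

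Sgca encodes α-sarcoglycan, the sarcoglycan of striated muscle, and lies on chromosome 11 (94962791 to 94976327, minus strand, mm10 here and below). It had 102 TPM in both replicates (102 ± 0.106), from 3672 reads in replicate 1 and 3680 in replicate 2. It ranked 431st and 457th among the 10023 nuclear protein-coding genes with at least 1 TPM in both libraries. Dag1, the dystroglycan gene on chromosome 9 (108204634 to 108263958, minus strand), had 69.2 TPM in replicate 1 and 68.7 TPM in replicate 2 (69.0 ± 0.361). Its ranks were 612 and 648. The animals differed by less than 1 TPM in each of these genes, and Sgca stood 32.9 TPM above Dag1.

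A middle group held the other sarcoglycans, dystrobrevin, dystrophin and sarcospan. Sgcb, for β-sarcoglycan (chromosome 5, 73632749 to 73647790, minus strand), had 35.4 TPM in replicate 1 and 36.1 TPM in replicate 2. Dtna, for α-dystrobrevin, the dystrophin-related protein that carries syntrophins and signalling enzymes (chromosome 18, 23415135 to 23659715, plus strand), had 33.4 TPM and 35.9 TPM. The ranges of Sgcb and Dtna overlapped across the animals, so their order cannot be told from these libraries. Dmd itself (chromosome X, 82948870 to 85206141, plus strand) had 30.1 TPM in replicate 1 and 31.7 TPM in replicate 2 (30.9 ± 1.08). This level rested on 10104 and 10310 reads, the most of the 8 genes in replicate 1 and second to the 10353 reads of Dag1 in replicate 2. Sgcd, for δ-sarcoglycan (chromosome 11, 46896253 to 47988969, minus strand), had 27.6 TPM and 25.2 TPM. Sspn, for sarcospan, the small protein with several membrane spans that joins the sarcoglycans (chromosome 6, 145931641 to 145965223, plus strand), had 21.8 TPM and 20.3 TPM. Both stood below Dmd in each animal.

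Utrn (chromosome 10, 12382188 to 12869365, minus strand) was the lowest of the 8, at 12.5 TPM in replicate 1 and 8.84 TPM in replicate 2 (10.7 ± 2.59). It ranked 3235th and 4234th. The order of neighbours held in both animals for all 7 adjacent pairs, and only the ranges of Sgcb and Dtna overlapped. In the second transcript table, a further estimate from the same reads that is described below, the order of Sgcb over Dtna and of Dtna over Dmd was not kept in both animals, while the other 5 steps were. That table gave the 8 genes 441 ± 23.9 TPM in all.

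**Figure D1:**
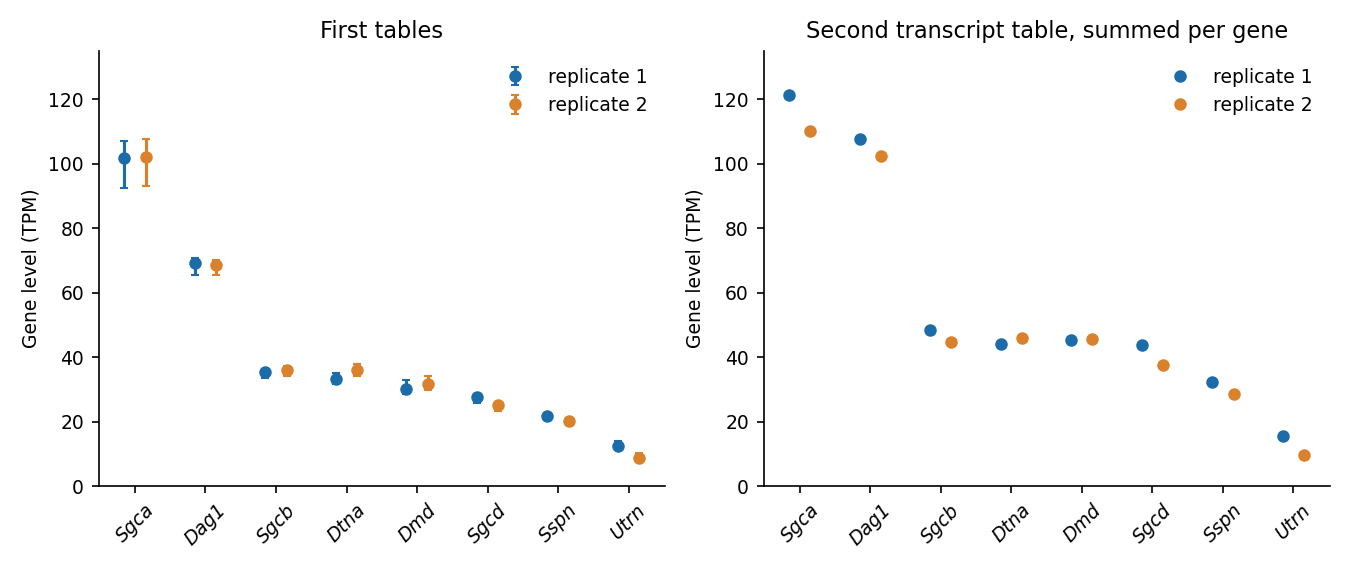
Level in TPM of each of the 8 complex genes, with 1 point per replicate, in the first tables (left, with the deposited credibility intervals as bars) and in the second transcript table summed per gene (right). Sgca (102 TPM) and Dag1 (69.0 TPM) stand apart at the top and Utrn (10.7 TPM) at the bottom of the left panel, and the right panel keeps these extremes while Sgcb, Dtna and Dmd draw together.

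The subunits were not at equal RNA levels. Set against Dmd in the same animal, Sgca was 3.38 times its level in replicate 1 and 3.22 times in replicate 2 (3.30 ± 0.112), and Dag1 was 2.30 and 2.17 times its level (2.23 ± 0.0899). Sgcb (1.16 ± 0.0236) and Dtna (1.12 ± 0.0200) were close to Dmd, and Sgcd (0.856 ± 0.0854) and Sspn (0.683 ± 0.0594) were below it. Among the sarcoglycans, which assemble in the membrane as a tetramer in muscle, Sgca was 2.85 ± 0.0387 times Sgcb and 3.87 ± 0.255 times Sgcd, and Sgcb was 1.36 ± 0.108 times Sgcd. These TPM ratios exceeded the spread between the animals. In the second transcript table the ratio of Sgca to Sgcb was 2.48 ± 0.0342 and that of Sgca to Sgcd 2.84 ± 0.115, with the same order. Ratios of RNA do not measure the protein ratios in the membrane.

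Utrn was well below Dmd in both animals. The ratio of Utrn to Dmd TPM was 0.415 in replicate 1 and 0.279 in replicate 2 (0.347 ± 0.0959), or -1.26 and -1.83 on the log2 scale. When only the full-length transcripts of each gene were set against each other, the ratio was 0.392 in replicate 1 and 0.271 in replicate 2 (0.332 ± 0.0853) and 0.350 ± 0.0887 in the second transcript table. Full-length Utrn was thus below full-length Dmd in each animal and both tables.

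Transcript forms were read from a pair of tables for each library. The first transcript table belongs with the gene table, and the second was made by another method from the same reads. A share of TPM counts molecules, whereas a share of reads weights each transcript by its length, and for genes as long as Dmd and Utrn they differ greatly. The tables listed 58 transcripts for the 8 genes, of which 14 belonged to Dmd, 13 to Utrn and 10 to Dtna.

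Dmd reads were assigned almost wholly to Dmd-203, the only full-length coding model annotated. Dystrophin forms absent from the annotation could not be told apart from it. Dmd-203, with 14910 bases, 79 exons and a protein of 3678 residues, held 92.3% of Dmd reads in replicate 1 (Wilson 95% interval 91.8 to 92.8%) and 92.5% in replicate 2 (91.9 to 92.9%). The second table gave it 96.0% and 95.7% of reads. It had 19.95 TPM in replicate 1 against 20.3 TPM in replicate 2 (20.1 ± 0.255), and 27.7 ± 1.17 TPM in the second table. As a share of Dmd TPM it made 66.2% and 64.2% in the first table and 63.0% and 58.7% in the second. TPM divides reads by length, which gives the short partial models of the gene more weight than their reads alone. Sgca as a whole gene was 5.06 ± 0.0587 times full-length Dmd in the first table and 4.17 ± 0.109 times in the second. That sets a whole gene against 1 transcript, since the partial Sgca models are included. In the first table Sgca-203 had 9.66% and 8.43% of Sgca TPM, and Sgca-204 had 23.0% and 24.6%.

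The short dystrophins were not detected as such. Dmd-201 and Dmd-202, with 617 and 604 residues, belong to Dp71, the dystrophin of many non-muscle tissues that lacks the actin-binding end and most of the rod, and start 2099.5 kb downstream of the first annotated start. Both were listed at 0 in both tables and both animals. A count of 0 allows up to 3 reads, or 0.0297% of Dmd reads in replicate 1 and 0.0291% in replicate 2, for counting error only, and a listed 0 can also come from how shared reads were assigned. Few bases could show them, since 47 bases of these forms lie in no transcript of another start. All 5 annotated transcripts from that internal start, 3 of them with retained introns, together held 50 reads in replicate 1 and 34.3 in replicate 2. They made 0.495% of Dmd reads and 3.42% of Dmd TPM in replicate 1, and 0.332% of reads and 2.09% of TPM in replicate 2. In the second table they made 1.58% and 1.12% of Dmd TPM. The annotation lists 3 coding Dmd transcripts, and the intermediate dystrophins of retina, brain and nerve are not among them, so they could not be assessed.

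The rest of the Dmd signal fell on noncoding models within the gene. The 7 models with a retained intron held 27.8% of Dmd TPM in replicate 1 and 23.9% in replicate 2, but only 7.30% and 6.72% of reads. One of them, Dmd-212, accounted for 20.6% and 17.3% of TPM in the first table, but 2.70% and 0% in the second. Dmd-210, a processed transcript with an incomplete model of 868 bases, had 3.55% and 8.91% of TPM in the first table but 27.2% and 31.6% in the second. The tables thus agreed on the full-length form and disagreed on which short noncoding model holds the remainder.

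**Figure D2:**
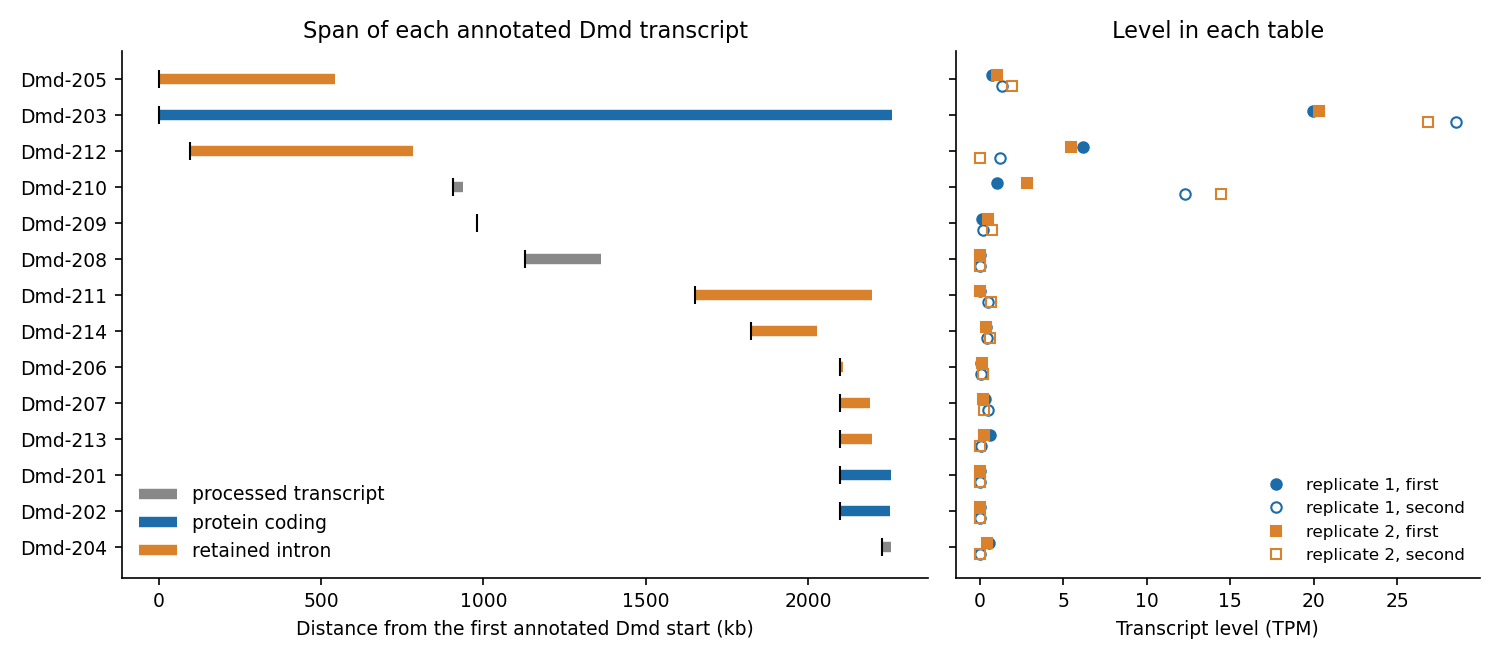
Span of the 14 annotated Dmd transcripts as distance from the first annotated start in kb, coloured by type (left), and their level in TPM by replicate in the first (filled) and second (open) transcript table (right). Dmd-203 spans the gene and has the highest level in all 4 estimates, Dmd-212 is high only in the first table, Dmd-210 is high mainly in the second, and the coding forms of the internal start, Dmd-201 and Dmd-202, lie at 0.

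Utrn was likewise carried by its full-length forms. Utrn-201 (12382 bases) and Utrn-205 (11801 bases) both encode 3430 residues and differ in where they start and end. Together they held 89.4% of Utrn reads in replicate 1 (Wilson 95% interval 88.4 to 90.4%) and 90.6% in replicate 2 (89.3 to 91.7%). Utrn-201 had 46.5% of Utrn TPM in replicate 1 and 47.3% in replicate 2, and Utrn-205 had 16.1% and 14.9%. The second table gave Utrn-201 46.7% and 44.97% but Utrn-205 28.4% and 35.1%. Utrn-201 therefore had the larger share in both tables and animals, while the share of Utrn-205 depended on the table. Partial coding models, of which Utrn-202 was the largest at 13.9% and 14.4%, held 25.8% and 28.2% of TPM but 5.77% and 6.15% of reads. In the second table Utrn-202 was listed at 0, and Utrn-212, another partial model, had 12.8% and 11.1%.

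The full-length Utrn forms summed to 7.82 TPM in replicate 1 and 5.51 TPM in replicate 2. They were higher in replicate 1, as was the gene as a whole, and their share of Utrn TPM was alike at 62.6% in replicate 1 and 62.3% in replicate 2. The shorter complete coding forms Utrn-204 and Utrn-206 had 6.72% of TPM in replicate 1 and 3.05% in replicate 2.

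Dtna had no single dominant form. Dystrobrevin is made in several lengths that differ at the C-terminal end, where the longer proteins carry the coiled coils that bind dystrophin. 4 complete coding transcripts held 94.3% of Dtna TPM in replicate 1 and 96.7% in replicate 2. The short form Dtna-201 (371 residues) had 34.8% and 34.4% of TPM, Dtna-206 (567 residues) had 25.7% and 23.6%, and the long forms Dtna-202 (682 residues) and Dtna-203 (746 residues) had 16.5% and 18.7%, and 17.3% and 20.0%. The long pair together made 33.8% of TPM in replicate 1 and 38.7% in replicate 2, about the share of Dtna-201. By reads the order was different, with 49.3% and 54.6% on the long pair and 15.3% and 14.7% on Dtna-201. The second table gave Dtna-201 31.4% and 30.4% of TPM, Dtna-206 27.8% and 24.7%, and the long pair 36.7% and 39.7%. All 3 length classes were thus present in each table, at between 23.6% and 39.7% of TPM, with Dtna-206 the lowest in both animals.

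**Figure D3:**
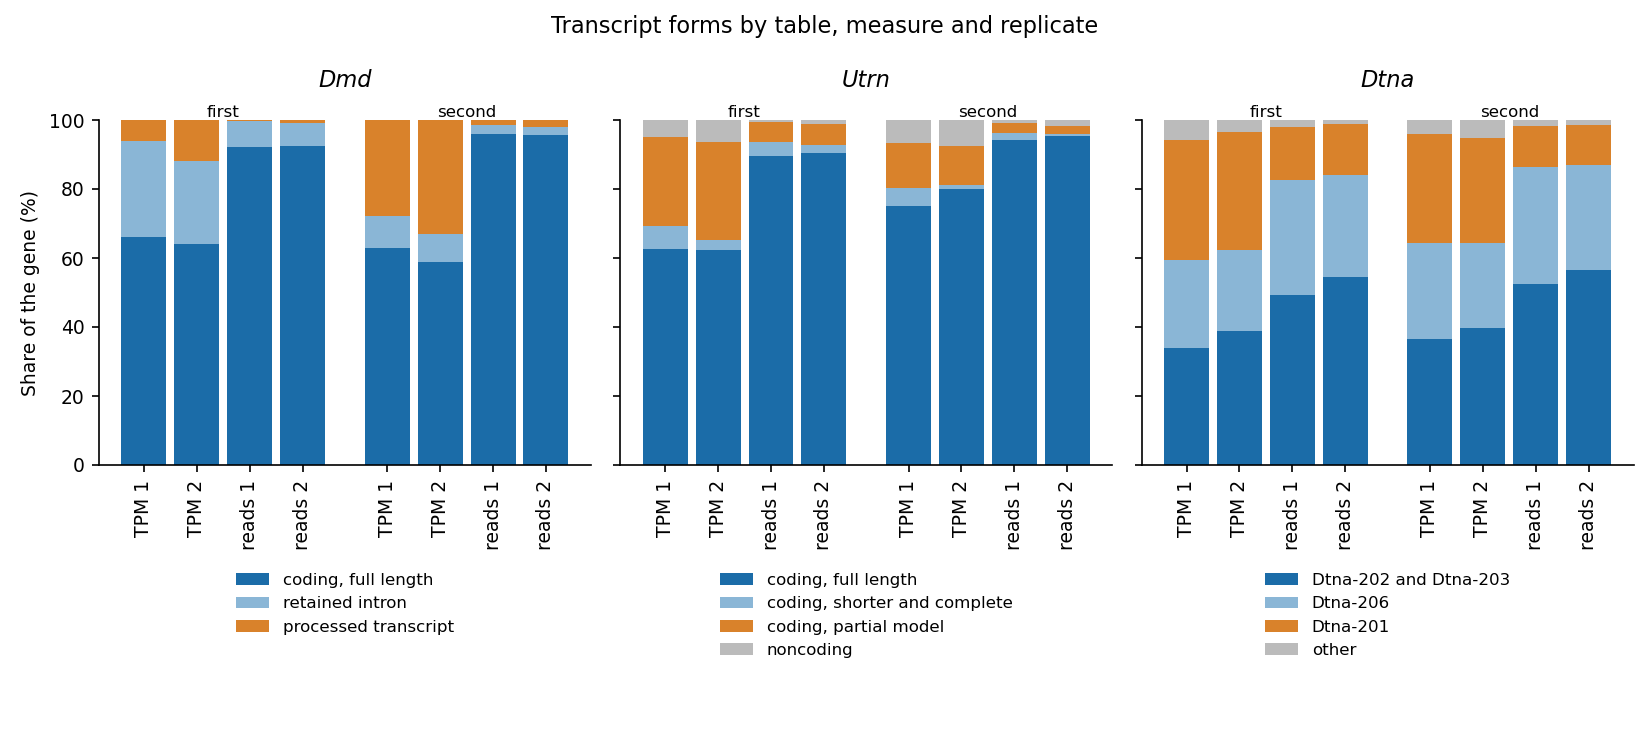
Share of each gene on its transcript forms for Dmd, Utrn and Dtna, as stacked bars by table (first and second transcript table), measure (TPM or reads) and replicate (1 or 2). The full-length bars of Dmd and Utrn rise to about 90% or more when reads are used in place of TPM, whereas Dtna is split over 3 length classes throughout.

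The remaining genes differed in how well the tables agreed on their forms. Sgcb-201 held 97.8% of Sgcb TPM in replicate 1 and 94.96% in replicate 2, and Sgcd-201 held 96.6% and 97.1% of Sgcd TPM. For Sspn the tables contradicted each other: Sspn-201 (216 residues) had 99.3% and 100% of TPM in the first table but 0.270% and 32.7% in the second, where Sspn-203 (140 residues) had 98.5% and 67.3%. Only 234 bases of Sspn-203 and 250 bases of Sspn-201 lie in no other transcript of the gene, so which sarcospan form was present cannot be told. For Sgca, Sgca-202 had 44.5% and 46.0% of TPM in the first table and 89.7% and 92.2% in the second, while Sgca-201, which encodes the same 387 residues from another start, had 22.8% and 20.95% in the first table and was listed at 0 in the second. For Dag1, Dag1-204, the transcript whose start window is shown above, led in both tables with 58.6% and 64.8% in the first and 48.1% and 50.8% in the second. Its complete alternatives start up to 0.222 kb downstream and encode the same 893 residues, so the Dag1 forms differ in RNA and not in the precursor.

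Between the animals, 7 of the 8 genes differed little and Utrn differed most. On the log2(TPM + 0.1) scale the ratio of replicate 1 over replicate 2 was 0.50 for Utrn, 0.13 for Sgcd, 0.11 for Sspn, 0.01 for Dag1, -0.00 (just below 0) for Sgca, -0.03 for Sgcb, -0.07 for Dmd and -0.11 for Dtna. 4 genes were thus higher in replicate 1 and 4 lower, where 49.0% of the 11627 genes with a mean expected count of at least 50 were higher in replicate 1. The median of the 8 ratios was 0.0043, against -0.0049 for those 11627 genes. None of the 8 genes differed 2-fold. Of the 11627 genes 2.83% did, 2.25% with the higher level in replicate 1 and 0.576% with the lower one there. A ratio at least as large in size as that of Utrn was found in 1697 of them, or 14.6%. The credibility intervals that the authors deposited reflect counting and the assignment of reads, and their level was not given in the sources used here. They did not overlap between the animals for Utrn (11.9 to 14.2 TPM in replicate 1, 8.51 to 10.4 in replicate 2) and for Sspn (20.7 to 22.2 and 19.2 to 20.6). Those are 2 of 8 genes, against 18.9% of the 11627 genes. In bulk tissue, more cells of a type and more RNA per cell cannot be told apart.

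The second transcript table kept Utrn on top, with 15.7 TPM in replicate 1, 9.64 TPM in replicate 2 and a log2 ratio of 0.70. In that table the median ratio of all genes lay at 0.11, 6 of the 8 genes were higher in replicate 1, and the median of the 8 was 0.13. Relative to the shift of all genes the 8 were therefore again centred near no difference. Of the 8 genes, 5 were higher in replicate 1 when expected counts were scaled by edgeR or DESeq2, and 6 when TPM was computed over nuclear coding genes alone. With these scalings and with a pseudocount of 1, the Utrn ratio was between 0.46 and 0.57.

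**Figure D4:**
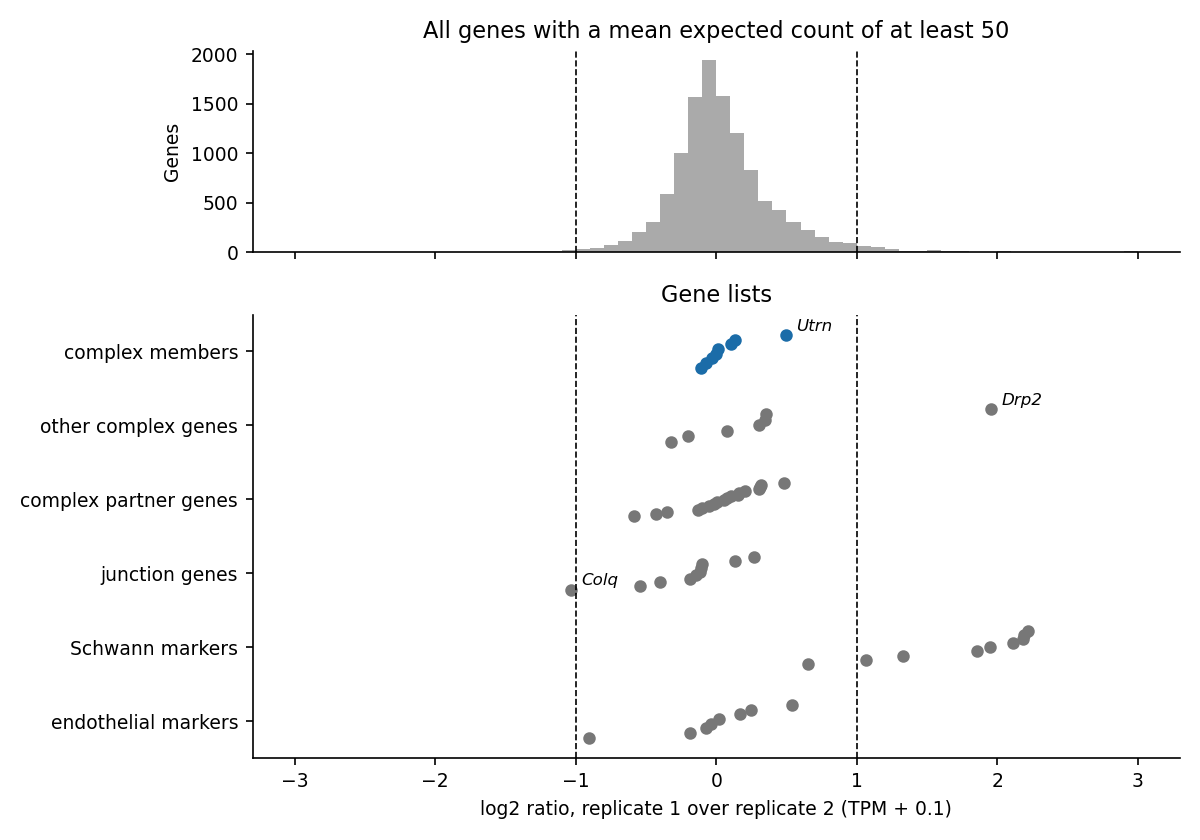
Log2 ratio of replicate 1 over replicate 2 on the TPM + 0.1 scale, as a histogram over the 11627 genes tested (top) and as 1 point per tested gene for the complex and for 5 other lists (bottom), with dashed lines at 2-fold. The complex genes lie between -0.11 and 0.13 except Utrn at 0.50, and endothelial markers lie on both sides of 0. Drp2, in the row of other complex genes, lies far out at 1.95, a value within the range of the Schwann cell markers.

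Of 10 other genes of the complex, 7 had at least 1 TPM in both animals, and 5 of these were higher and 2 lower in replicate 1, where 49.0% of the 11627 genes were higher. Sgce, for the ε-sarcoglycan of many non-muscle tissues, had 4.17 TPM in replicate 1 against 3.94 TPM in replicate 2, and Sgca was 25.1 ± 1.03 times its level. Sgcz, for ζ-sarcoglycan, and Sntg1, for the neuronal γ1-syntrophin, were listed at 0 in both libraries of the first tables. The second table listed Sgcz at 0.248 TPM in replicate 1 against 0.196 TPM in replicate 2, and Sntg1 at 0.0124 TPM against 0.0322 TPM. Dtna exceeded Dtnb, the β-dystrobrevin gene, 17.6 ± 4.13 times.

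Drp2, for dystrophin-related protein 2, a relative of dystrophin and utrophin found in Schwann cells of peripheral nerve, stood out between the animals. It had 9.63 TPM in replicate 1 against 2.41 TPM in replicate 2, from 1868 and 476 reads. Its log2 ratio was 1.95, at or above which lay 35 of the 11627 genes, or 0.301%. In the second transcript table the ratio was 2.12. It was the only one of the 7 tested genes in that list past 2-fold. In replicate 1 Drp2 RNA was 0.770 times that of Utrn, and in replicate 2 it was 0.273 times.

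Schwann cell, fibroblast, tendon and macrophage markers were higher in replicate 1, as were Utrn and Drp2. Of the 11627 genes, 49.0% were higher in replicate 1 and 2.25% were 2-fold higher there. The 9 Schwann cell markers summed to 474 TPM in replicate 1 and 108 TPM in replicate 2. All 9 were higher in replicate 1 and 8 were past 2-fold, with a median log2 ratio of 1.95. Prx, for periaxin, the Schwann cell protein that binds Drp2, had 19.1 TPM and 4.34 TPM, and was picked after its values were seen. Fibroblast markers summed to 1764 TPM and 920.9 TPM (7 of 7 higher in replicate 1), tendon cell markers to 147.6 TPM and 100.8 TPM (6 of 6) and macrophage markers to 64.8 TPM and 45.9 TPM (7 of 7 tested). Endothelial markers, at 68.4 TPM and 68.9 TPM, had no common direction in the first tables. Nor did smooth muscle and pericyte markers, at 148 TPM and 115 TPM. In the second transcript table, where the median ratio of all genes was 0.11, 6 endothelial markers were higher in replicate 1 and 2 lower. All 6 tested smooth muscle and pericyte markers were higher there, and 1 was past 2-fold. Acta2 (0.75), Rgs5 (0.32) and Tagln (1.02) lay above that median, and Myh11 (0.05), Notch3 (0.05) and Pdgfrb (0.096) below it. The 3 satellite cell markers summed to 1.39 TPM and 1.83 TPM. The 7 muscle fibre markers, at 54753 TPM and 59980 TPM, were abundant in both libraries, and 5 of 7 were lower in replicate 1. None of the markers in these lists was listed at 0 in both libraries. Their part in the results for Utrn and Drp2 was not tested.

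Partners of the complex were measured through 20 genes for proteins that bind it or link it to the matrix and the cytoskeleton. Of these 18 had at least 1 TPM in both animals, and the list summed to 1510 TPM in replicate 1 and 1529 TPM in replicate 2. The intermediate filament gene Des, for desmin, led with 739.7 TPM and 746.7 TPM, followed by Plec, for the linker plectin, with 260 TPM and 279 TPM, and Synm, for the filament protein synemin, with 112 TPM in both. The lowest were the keratin genes Krt8 (0.10 TPM and 0.12 TPM) and Krt19 (0.34 TPM and 0.23 TPM). None of the 18 tested partners differed 2-fold, a count near the 2.83% over the 11627 genes. The largest ratio was that of Ank2, for ankyrin-B, which had 29.3 TPM in replicate 1 and 44.1 TPM in replicate 2. Its log2 ratio was -0.59, larger in size than that of Utrn.

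Utrophin is concentrated in the fibre at the neuromuscular junction, for which 10 genes were measured. Of these, 2 were higher in replicate 1 and 8 lower, with a median log2 ratio of -0.13, where 49.0% of the 11627 genes were higher. The second transcript table had 3 higher and 7 lower. Musk, for the receptor kinase of the junction, had 14.96 TPM in replicate 1 and 16.04 TPM in replicate 2. Ache, for acetylcholinesterase, had 12.7 TPM and 16.7 TPM, and Chrnb1, for a subunit of the acetylcholine receptor, had 14.8 TPM and 13.4 TPM. The lowest were Chrnd, for another receptor subunit, at 0.670 TPM and 0.750 TPM, and Colq, for the collagen tail of acetylcholinesterase, at 1.44 TPM and 3.05 TPM. Colq, from 125 and 265 reads, was the only one of the 10 past 2-fold, with a log2 ratio of -1.03. In the second table its ratio was -0.79 and none of the 10 was past 2-fold, the largest in size being 0.81 for Dok7, for an activator of Musk, which is named here after its values were seen.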

How the data were processed

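Both libraries were made from 300 ng of total RNA. Per the deposited notes and file headers, reads were quantified on mm10 with GENCODE M21. Aligner and quantifiers were not given in the sources used here. For genes and transcripts the authors deposited expected counts (estimated reads, not always whole), TPM, FPKM, posterior mean TPM and credibility bounds, and a second transcript table of estimated counts and TPM. Nothing was pooled.

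Of 55536 Ensembl identifiers in the gene table, 55450 matched the annotation used here, which gave symbols and coordinates. Symbols held by several genes were read from the copy with the highest mean TPM. Ratios are log2(TPM + 0.1) of replicate 1 over replicate 2, over 11627 genes with a mean expected count of at least 50. Wilson intervals use rounded expected counts and cover counting error only. The counts of the libraries were compared only to see that they are not 1 library deposited under both names (chi-square of 44.4 per degree of freedom). With 1 group of 2 animals no test between groups was made. The fold count was tested on simulated data.

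Promoter windows came from RefSeq (GRCm38.p6). Members and lists were chosen with earlier results of these data known. Named genes were the 8 members, of each list of related genes its 3 highest, 2 lowest and largest-ratio members, and for Dmd, Utrn and Dtna their leading transcripts; of the marker lists mostly sums are given. Some genes that this rule names are not reported here. Alternatives were the second table, TPM rescaled over nuclear protein-coding genes, FPKM, posterior mean TPM, a pseudocount of 1, no filter, expected counts scaled by edgeR 4.0.16 or DESeq2 1.42.0, a transcript length limit of 5000 in place of 10000 bases, and either replicate alone. Python 3.11.15, pandas 2.3.3, numpy 2.4.6, scipy 1.17.1 and R 4.3.3 were used.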

Additional observations from a re-analysis of the deposited data

How the results depend on the processing

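The summed level of the 8 genes was 441 TPM in the second transcript table, 802 TPM when rescaled over nuclear protein-coding genes and 327 TPM by posterior mean, against 330.3 TPM. The share of Dmd in coding transcripts of at least 10000 bases was 60.9% in the second table and 92.4% by expected counts, against 65.2%. That of Utrn was 77.5% and 90.0%, and 66.9% with a limit of 5000 bases, against 62.4%. The share of Dtna-201 was 30.9% in the second table and 15.0% by expected counts, against 34.6%. Of 38 alternative values for the main results 10 moved and 28 did not, and of 40 for the TPM of single genes 22 moved and 18 did not. These counts do not measure robustness. With n = 2 either replicate alone lies within 1 SD of the mean whatever the data. All 8 genes passed the count limit, so leaving it out could not change their values. Levels, shares and counts cannot change sign. The log2 ratio of Utrn over Dmd stayed below 0 and the median ratio of the 8 genes stayed above 0 throughout. Between the animals, the ratios of Sgca (-0.0021) and Sgcb (-0.030) turned positive in the second table, at 0.14 and 0.11. The other genes kept their sign there. The orders of Sgcb over Dtna and of Dtna over Dmd were not kept in both animals. The number of genes past 2-fold was 0 of 8 under every scaling, pseudocount and filter tried. Either replicate alone gave sums of 329 to 332 TPM. Ratios between replicates need both, so leaving out a replicate gives no value for them. No paired analysis was possible because the series has 1 group. The Dmd internal start and the Sspn forms rest on few distinguishing bases, and whether greater depth would separate them was not tested.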
